A study of Homo sapiens with 9 samples.

Results

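The genes described here are 8 members of the S100 family, S100A4, S100A6, S100A8, S100A9, S100A10, S100A11, S100A13 and S100A16, out of 62700 genes in the expression tables. They were taken by gene symbol. S100A8 was chosen by its lower expression in the enhancer KO libraries, so its difference from the control is a description here and carries no test. RNA was sequenced from HAL-01, a leukemia line of the B cell lineage with the t(17;19) translocation and the fusion transcription factor TCF3::HLF. All cells stably expressed Cas9GFP, in the control group too, and were collected on day 13. A single guide RNA, sgRNA_96 or sgRNA_97, was directed at the HLF motif of a MEF2C enhancer that TCF3::HLF binds, and the scrambled guide SCR1 served as control. Each guide had 3 libraries (replicates 1, 3 and 4), so that 6 enhancer KO libraries were compared with 3 SCR1 libraries. The results come from 1 cell line, and which cells in each culture were edited was not analysed here. Totals lay between 15212462 and 29777361 estimated counts per library, and SCR1 replicate 1 was the deepest.

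S100 proteins are small calcium sensors with a pair of EF-hand motifs, and most work as dimers that change shape when calcium binds and then attach to partner proteins. S100A8 and S100A9 form calprotectin, the abundant antimicrobial heterodimer of neutrophils and monocytes, which signals through TLR4 and RAGE once it is outside the cell. S100A4 binds nonmuscle myosin and is linked to cell movement, S100A10 pairs with annexin A2 at the plasma membrane, S100A11 pairs with annexin A1, S100A6 binds calcyclin-binding protein, and S100A13 assists the release of FGF1. The genes lie together on chromosome 1, where the family shares a long block with the genes of epidermal differentiation.

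All 8 members lay on chromosome 1 of hg38 in GENCODE release 44, and 7 of them, all but S100A9, were on the minus strand. S100A8 (ENSG00000143546.10) occupied chr1:153390032-153391073, and S100A9 (ENSG00000163220.11) occupied chr1:153357854-153361023. S100A6 (chr1:153534599-153536244), S100A4 (chr1:153543613-153550136), S100A16 (chr1:153606886-153613145) and S100A13 (chr1:153618787-153631360) followed on the same side of S100A8. S100A10 (chr1:151982915-151993859) and S100A11 (chr1:152032506-152047907) lay at the far end of the block. S100A8, S100A9, S100A10 and S100A16 overlapped no other gene model. S100A4 overlapped S100A3 on its own strand, and S100A13 overlapped S100A1 on the opposite strand. Because it was not stated whether strand was used in counting, reads of S100A13 and S100A1 in the shared stretch may not have been told apart.

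RefSeq promoters (GRCh38.p14) were found for all 8 members at the start of their canonical transcript, and the 250 bases before that start were read. The motif TATAAA stood on the coding strand 25 to 35 bases before the start in 4 members, S100A8, S100A9, S100A4 and S100A13, compared with 3.20% of 19094 promoters. These 4 were the members with at least 15 counts over the 9 libraries, and the other 4 had at most 2. S100A9 had just 15 and did not pass the expression filter. Of the 611 promoters with the motif there, 28.5% belonged to genes that passed this filter, compared with 52.9% of all promoters. Across the family the motif did not follow expression, since S100A7, S100G and S100P also held it in that window and were at 0 counts. The 150 bases before the start are given 5′ to 3′ for the 4 members with TATAAA in capitals, and for S100A6, a member at 0 counts without it.
S100A8, chr1:153391074-153391223, minus strand: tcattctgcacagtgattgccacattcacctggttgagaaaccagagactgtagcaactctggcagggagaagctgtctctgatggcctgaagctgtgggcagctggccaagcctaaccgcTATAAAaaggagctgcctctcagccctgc
S100A9, chr1:153357704-153357853, plus strand: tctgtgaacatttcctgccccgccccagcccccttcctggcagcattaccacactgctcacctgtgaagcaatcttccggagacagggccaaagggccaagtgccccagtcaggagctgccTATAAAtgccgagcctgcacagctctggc
S100A4, chr1:153545807-153545956, minus strand: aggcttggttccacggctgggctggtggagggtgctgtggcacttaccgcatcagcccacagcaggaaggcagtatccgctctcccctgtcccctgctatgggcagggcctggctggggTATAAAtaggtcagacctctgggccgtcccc
S100A13, chr1:153627506-153627655, minus strand: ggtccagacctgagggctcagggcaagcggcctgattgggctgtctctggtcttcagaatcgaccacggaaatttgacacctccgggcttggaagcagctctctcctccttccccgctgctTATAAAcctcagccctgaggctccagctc
S100A6, chr1:153535992-153536141, minus strand: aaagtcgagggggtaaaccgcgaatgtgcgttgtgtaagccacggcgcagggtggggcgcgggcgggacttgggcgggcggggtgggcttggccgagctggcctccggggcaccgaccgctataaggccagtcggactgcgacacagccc

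The members also differed in CpG dinucleotides, the sites of DNA methylation. In the 250 bases before the start, S100A8 held 2 CpGs, S100A9 held 4 and S100A4 held 7, whereas S100A6 and S100A10 held 24 each and S100A11 held 15. The median over all promoters was 17. The 3 members with the most CpGs were thus those without a single count, although 73.6% of the 10600 genes with at least 15 CpGs in that stretch passed the expression filter and only 13.6% were at 0. S100A16, with 1 CpG, was also near 0. The HLF core TTANNTAA and the MEF2 core (CTA, any 4 bases, then TAG), each searched on both strands, occurred in none of the 8 members, and in 4.09% and 2.17% of all promoters. The C/EBP core TTGCNNAA, likewise searched on both strands, occurred in 1 member, S100A11, and in 7.46% of all promoters. Absence of these letters from this window says nothing of distant elements.

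The members fell into 3 levels. S100A4 and S100A13 were expressed in every library, S100A8 was low, and the remaining 5 were at or near 0. Only these first 3 of the 8 passed the filter on low counts (at least 10 counts in enough libraries), as did 5 of the 21 genes of the whole S100 family and 14436 genes in all. In TPM, a transcript level scaled for length, the SCR1 means were 90.1 ± 6.16 for S100A4, 77.5 ± 3.69 for S100A13, 12.98 ± 3.29 for S100A8 and 0.522 ± 0.562 for S100A9 (SD, n = 3). S100A4 and S100A13 together made up 91.1% to 93.6% of the summed TPM of the 8 members in the SCR1 libraries and 96.3% to 98.5% in the KO libraries.

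**Figure D1:**
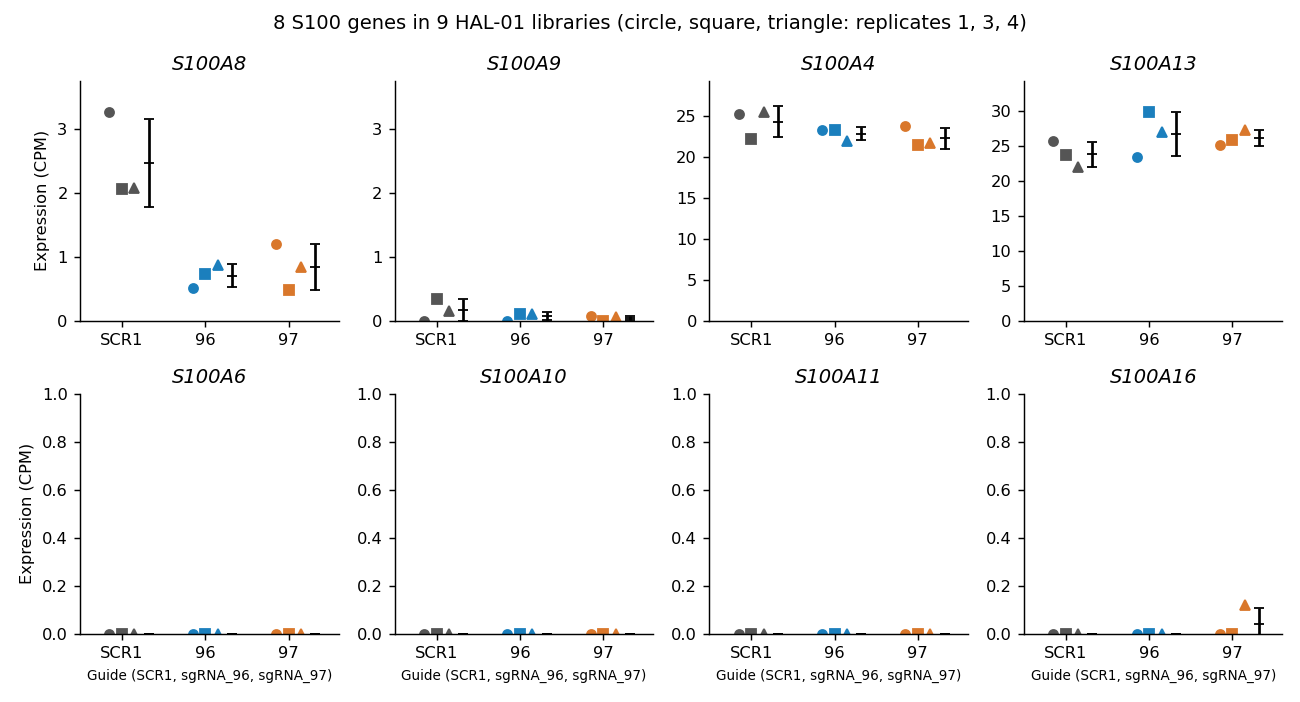
Expression of the 8 S100 genes in CPM by guide, with 1 point per library and the mean ± SD beside each group (n = 3 libraries). S100A8 in the 6 KO libraries lay at 0.474 to 1.19 CPM, below all SCR1 libraries (2.05 to 3.26), whereas S100A4 and S100A13 kept overlapping values and S100A6, S100A10 and S100A11 were at 0 throughout.

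Every KO library had less S100A8 than every SCR1 library. The estimated counts were 96, 36 and 44 in SCR1 replicates 1, 3 and 4, 8, 15 and 16 with sgRNA_96, and 18, 9 and 14 with sgRNA_97. In CPM (counts over the TMM-scaled library size, times 1000000), SCR1 replicates 1, 3 and 4 had 3.26, 2.05 and 2.08. The sgRNA_96 libraries had 0.504, 0.730 and 0.868, and the sgRNA_97 libraries 1.19, 0.474 and 0.831. The highest KO value, that of sgRNA_97 replicate 1, was thus well below the lowest control value, and the 3 control values were themselves spread, with replicate 1 above the others. The fitted log2 fold change was -1.70 (SE 0.30, 95% interval -2.33 to -1.06), a level 0.308 times that of SCR1. With each guide it was -1.81 (SE 0.38, sgRNA_96) and -1.59 (SE 0.37, sgRNA_97), and both values rest on the same 3 SCR1 libraries. Without SCR1 replicate 1 the log2 fold change was -1.43, the value nearest to 0 among the 20 alternative settings, whose other end was -1.86. Since the gene was chosen for this fall, the interval and the range over settings are no test of it. The choice may also make the fall look larger than it is. In bulk RNA, fewer cells with the transcript and less transcript per cell cannot be told apart.

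A transcript in this range was counted thinly. The 9 libraries gave 256 S100A8 counts in all, and 98.2% to 98.9% of its TPM in each group came from the single transcript S100A8-202. Its level in TPM was 16.8, 11.1 and 11.03 in the SCR1 libraries, between 2.56 and 6.40 in the KO libraries, and the groups did not overlap on this scale either. Values that did not overlap between KO and SCR1 were found for 20.3% of all genes tested, and a KO range wholly below the control was found for 10.3%. Since the fall of S100A8 was the reason for including it, nothing is read from this.

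For S100A8 no difference between the guides passed the test. The log2 difference of sgRNA_97 from sgRNA_96 was 0.21 (SE 0.42, edgeR adjusted p 1.00), with a 95% interval of -0.68 to 1.103. This comparison was not used to choose the gene, but at these counts its interval reached beyond a doubling. It changed sign without sgRNA_97 replicate 1, to -0.13. Between the guides only 3 of 14436 genes (0.0208%) were called, none of them an S100 gene.

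S100A9, the partner of S100A8 in calprotectin, was close to 0. SCR1 replicates 1, 3 and 4 had 0, 6 and 3 counts, the sgRNA_96 libraries 0, 2 and 2, and the sgRNA_97 libraries 1, 0 and 1. It did not pass the filter, and no difference was detectable at this depth. In the SCR1 libraries 9 of the 185 counts of the pair came from S100A9, 4.86% (exact 95% interval 2.25 to 9.03), and in the KO libraries 6 of 86, 6.98% (2.603 to 14.6). The intervals cover counting error only. On the length-scaled TPM scale, S100A8 was 24.9 times S100A9 in SCR1 and 23.0 times in KO. The RNA of the pair was thus uneven in every group, and the start sites of both genes lay 33.2 kb apart.

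S100A12, the third S100 gene of granulocytes, lies between them and had 1 count, in SCR1 replicate 1.

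S100A4 did not pass the test between KO and SCR1. Its TPM was 92.7, 83.1 and 94.5 in SCR1 replicates 1, 3 and 4. The sgRNA_96 libraries had 87.0, 86.8 and 85.6 TPM, and the sgRNA_97 libraries 88.2, 79.2 and 83.3. All but 1 of the KO values, 79.2, fell inside the control range. The log2 fold change was -0.11 (SE 0.07, edgeR adjusted p 0.289), and its 95% interval, -0.26 to 0.04, corresponds to a level between 0.834 and 1.03 times that of SCR1. Of its TPM, 94.9% to 96.96% came from S100A4-204 in the group means, out of 6 annotated transcripts.

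S100A13 did not pass the test either. Its TPM was 80.0, 79.4 and 73.3 in SCR1 replicates 1, 3 and 4. With sgRNA_96 it was 74.5, 95.99 and 84.4 TPM, and with sgRNA_97 it was 85.3, 87.5 and 92.0. Of the 6 KO values, 5 were above the highest control on this scale and sgRNA_96 replicate 1 was among the controls. The log2 fold change was 0.15 (SE 0.08, edgeR adjusted p 0.209), with a 95% interval of -0.02 to 0.32, or 0.986 to 1.25 times SCR1. S100A4 stood above S100A13 in TPM in all 3 SCR1 libraries, with ratios of S100A13 to S100A4 of 0.775 to 0.956. In the KO libraries the ratio ran from 0.856 to 1.11, so the order of both genes was not fixed there.

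S100A13 was the member with a mixture of transcripts. The canonical S100A13-205 held 69.0% ± 5.83 of its TPM in SCR1, 65.8% ± 4.61 with sgRNA_96 and 77.8% ± 2.55 with sgRNA_97 (SD, n = 3). S100A13-204 held 16.6% ± 3.91, 18.8% ± 3.72 and 10.5% ± 2.78, and S100A13-203 held 11.9% ± 3.01, 12.3% ± 2.22 and 8.997% ± 0.592. The S100A13-205 share was 74.9% to 79.8% in the sgRNA_97 libraries and 61.3% to 74.9% in the others, so that sgRNA_97 replicate 4 and SCR1 replicate 3 were practically level. Shares rest on Salmon's division of reads among transcripts that share exons, and they were not tested.

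**Figure D2:**
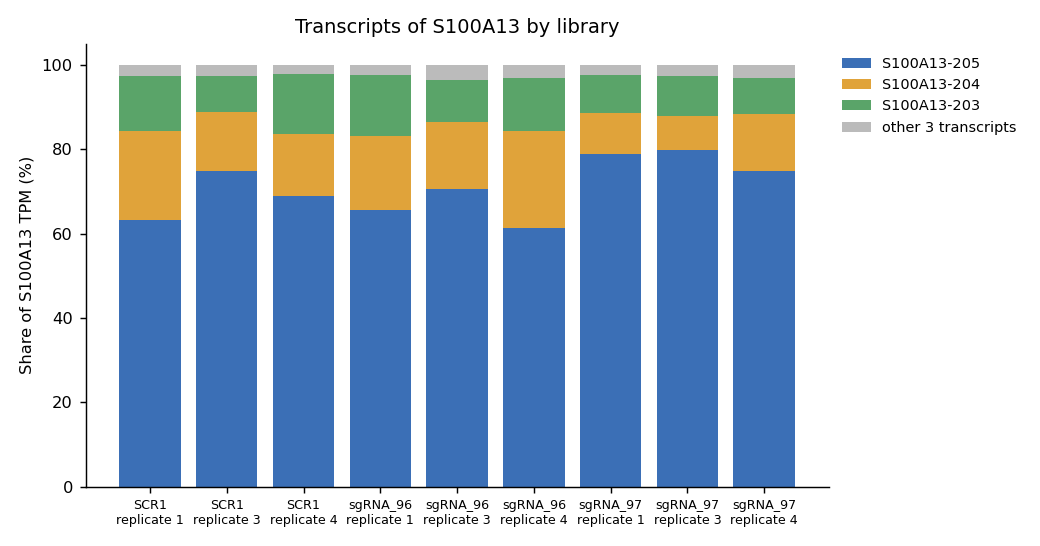
Share of S100A13 TPM (%) held by each transcript, stacked to 100% in each of the 9 libraries. S100A13-205 was the largest in every library, from 61.3% in sgRNA_96 replicate 4 to 79.8% in sgRNA_97 replicate 3.

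The members that in many cell types are among the most abundant S100 transcripts gave nothing to compare. S100A6, S100A10 and S100A11 had 0 counts in each of the 9 libraries, SCR1 included, which allows a level of up to 0.102 to 0.199 CPM in a single library (3 counts) and 0.0172 CPM over all 9. S100A16 had 2 counts, both in sgRNA_97 replicate 4. These limits cover counting error only. For S100A10 and S100A6, transcripts of the known protein partners were present all the same. ANXA2, the annexin bound by S100A10, had 181 to 192 CPM in SCR1 and 132 to 169 CPM in KO, and CACYBP, which binds S100A6, had 137 to 150 CPM in SCR1 and 108 to 126 CPM in KO. ANXA1, the annexin linked to S100A11, did not pass the filter.

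Of the 13 other S100 family genes, S100A1 and S100A7A passed the filter. S100A1, a calcium sensor best known from heart muscle, was higher in KO. Its CPM was 3.94, 4.96 and 3.92 in SCR1 replicates 1, 3 and 4. With sgRNA_96 it was 5.74, 6.76 and 5.75 CPM, and with sgRNA_97 it was 6.22, 6.21 and 7.07. All 6 KO values were above every control, and 10.1% of all genes tested had a KO range wholly above the controls. The log2 fold change of S100A1 was 0.57 (SE 0.14, edgeR adjusted p 0.00967). With sgRNA_97 it was 0.61 (SE 0.16, adjusted p 0.0211), and with sgRNA_96 0.52 (SE 0.16, adjusted p 0.0532), which did not pass the threshold of 0.05. Over all genes tested, 15.1% were called with sgRNA_97 and 11.2% with sgRNA_96. The sgRNA_97 call was lost without SCR1 replicate 1 or 4 or sgRNA_97 replicate 3 or 4 (adjusted p 0.0529 to 0.0971). With sgRNA_96 the threshold was passed under 6 alternatives, the 3 limma settings, the length and GC trend offsets and without SCR1 replicate 3 (adjusted p 0.0105 to 0.0400). The difference between the guides was 0.09 (SE 0.16, edgeR adjusted p 1.00). The KO call was lost without SCR1 replicate 1 (adjusted p 0.0654) or without SCR1 replicate 4 (adjusted p 0.0535). Over the 20 alternatives its log2 fold change ran from 0.51 to 0.68. S100A13, whose reads may be mixed with those of S100A1 across the strands, had the smaller value of 0.15 given above.

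S100A7A, a relative of psoriasin, had 1.65 to 2.95 CPM in SCR1 and 1.51 to 2.77 CPM in KO, with a log2 fold change of -0.23 (SE 0.26, edgeR adjusted p 0.580). Its sign was not stable, since it was 0.04 without SCR1 replicate 1. S100A2 had 18 counts in all, S100A5 had 10, S100A3 had 5, and S100A14 had 11, of which 10 were in the SCR1 libraries. S100A7, S100A7L2, S100B, S100G, S100P and S100Z were at 0 in all 9 libraries. Leaving S100A8 aside, 1 of the 4 other family genes tested was called in KO against SCR1, S100A1, beside 20.7% of all 14436 genes (10.1% higher, 10.6% lower). The median log2 fold change of all 5, which includes the gene chosen for its fall, was -0.11, compared with 0.00 over all genes tested.

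**Figure D3:**
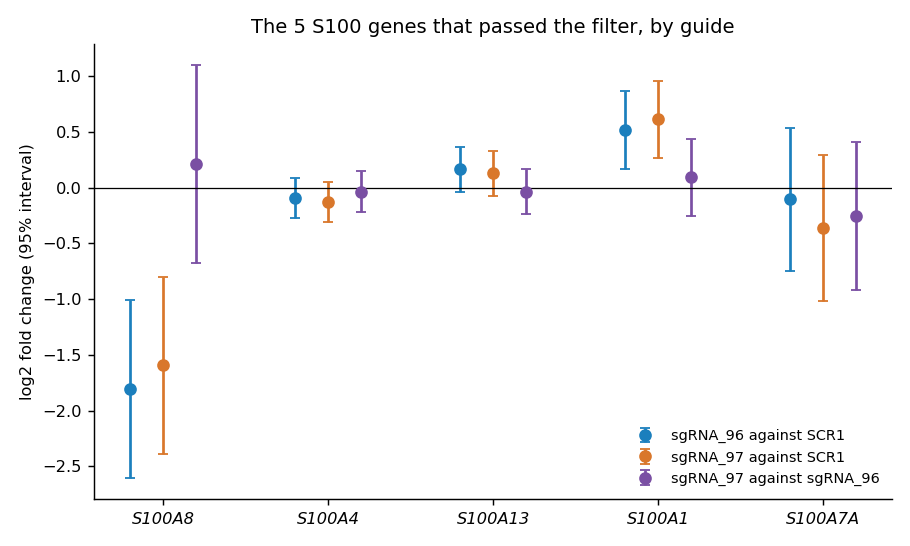
Log2 fold change with its 95% interval for the 5 S100 genes that passed the filter, for sgRNA_96 and sgRNA_97 against SCR1 (3 libraries each, shared controls) and for sgRNA_97 against sgRNA_96. S100A8 lay at -1.81 and -1.59, S100A1 at 0.52 and 0.61, and every interval of the difference between the guides included 0. The intervals of S100A8 against SCR1 take no account of its choice for this fall and are no test.

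The position of the genes was read next, in a window from 100 kb before the first to 100 kb after the last of the 8 members, which held 104 annotated genes. Of these, 77 had 0 counts and 10 passed the filter. Apart from S100A8 itself, the genes that passed lay on its side away from S100A10 and S100A11. The 69 genes that start more than 150 kb before S100A8, S100A10 and S100A11 among them, had 8 counts in all over the 9 libraries, and the 35 genes from there on had 23 with at least 1 count. The nearest neighbour of S100A8 to pass the filter was S100A7A, 25.4 kb away, with a log2 fold change of -0.23. Of the 9 genes other than S100A8, S100A1 and ILF2 were called, compared with 20.7% of all genes tested. ILF2, a double-stranded RNA binding protein gene 280.0 kb from S100A8, was at -0.18 (SE 0.04, edgeR adjusted p 0.00583). The other neighbours tested, from S100A4 to SNAPIN, were between -0.31 and 0.15 and did not pass the test.

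**Figure D4:**
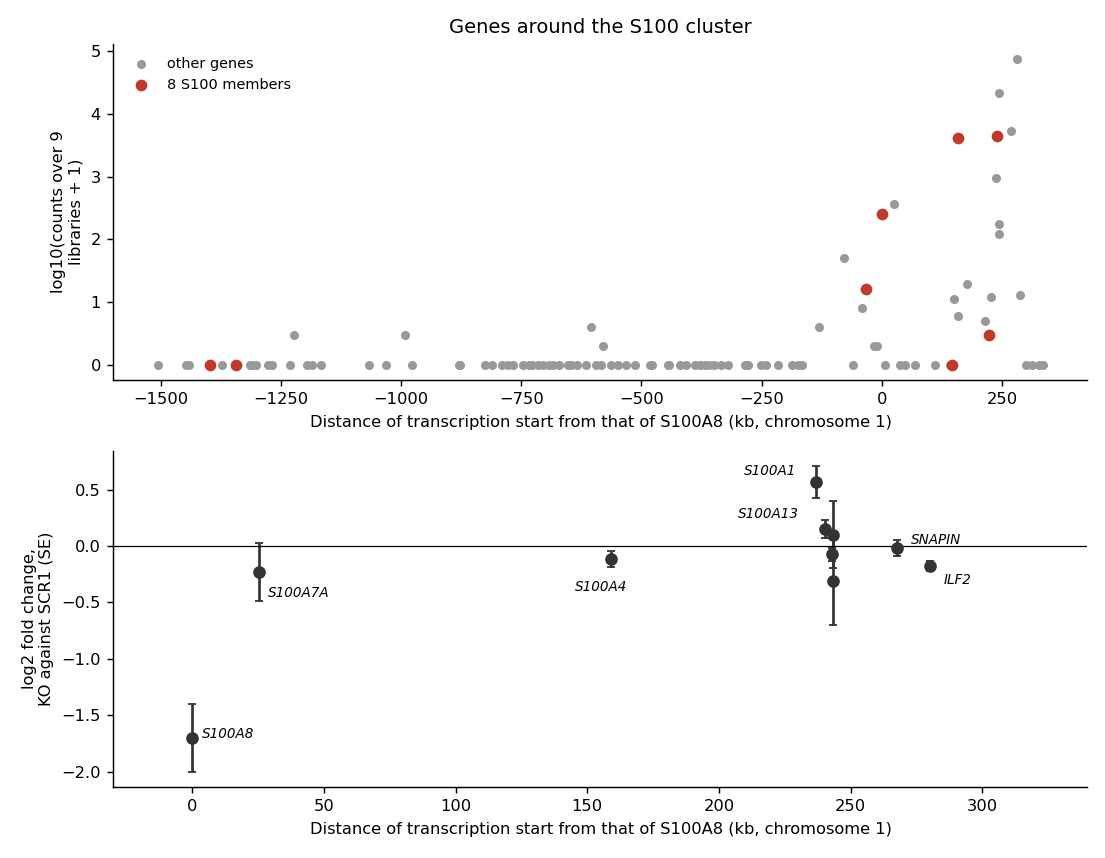
Top, total estimated counts over the 9 libraries (log10 of counts + 1) for the 104 genes of the window against the distance of their transcription start from that of S100A8 in kb; bottom, log2 fold change of KO against SCR1 with its SE for the 10 genes that passed the filter. The 10 genes that passed the filter lie from S100A8 onward. S100A8, chosen for its fall, is at -1.70, S100A7A at -0.23, S100A4 at -0.11 and S100A13 at 0.15.

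Receptors and partners of S100 proteins were examined as lists. Of 12 receptor genes 9 were tested, with a median log2 fold change of -0.03, and 4 were called (44.4%, compared with 20.7% of all genes tested). CD33, a sialic acid-binding receptor that S100A9 can engage, rose (log2 fold change 0.61, SE 0.12, edgeR adjusted p 0.00162), from 6.06 ± 0.490 CPM (SD, n = 3) to 9.25 ± 0.836 (SD, n = 6). AGER, which encodes RAGE, rose from 4.84 ± 0.906 to 7.002 ± 0.866 CPM (log2 fold change 0.54, edgeR adjusted p 0.0187). CD69, an activation receptor, fell from a low level, 1.45 ± 0.473 CPM, to 0.590 ± 0.354 (-1.28, edgeR adjusted p 0.0443), and BSG, a matrix metalloproteinase inducer, fell by 0.18 on the log2 scale (edgeR adjusted p 0.0484). The call for AGER was lost without SCR1 replicate 1 (adjusted p 0.127) or SCR1 replicate 3 (adjusted p 0.0629), and that for CD33 under 4 of the 20 alternatives, those on log2 TPM and the transcript length offset (log2 fold change down to 0.35, adjusted p up to 0.251). CD69 was at -0.60 in limma on log2(TPM + 1). The calls for CD69 and BSG were lost under 12 of the 20 alternatives each, 6 of them left-out libraries. Among the left-out libraries the adjusted p reached 0.151 for CD69 (without SCR1 replicate 3) and 0.202 for BSG (without SCR1 replicate 1), and with limma on log2(TPM + 1) without a filter it was 0.217 and 0.248. TLR4, the main calprotectin receptor, was at 8.51 to 9.47 CPM in SCR1 and 8.12 to 10.7 CPM in KO (-0.03, edgeR adjusted p 0.889), and its coreceptor gene CD14 did not pass the filter.

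Of 19 genes for intracellular partners 16 were tested, with a median of -0.07, and 6 were called (37.5%, compared with 20.7% of all genes). AHNAK, a scaffold bound by S100A10 with annexin A2, was at 1.11 (edgeR adjusted p 0.0420), PPFIBP1, the liprin bound by S100A4, at 0.24 (adjusted p 0.00602) and MDM2, the p53 ligase, at 0.14 (adjusted p 0.0350). ANXA2 fell by 0.31 (adjusted p 0.00273), CACYBP fell by 0.30 (adjusted p 0.00136) and PPP5C, a phosphatase gene, fell by 0.19 (adjusted p 0.0173). All 6 KO values of ANXA2 and CACYBP were below every control, as were those of MYH10 (-0.10, edgeR adjusted p 0.0874), which was not called. Those of PPFIBP1 and MDM2 were above every control. Over all genes tested, 10.3% had a KO range wholly below the controls and 10.1% wholly above. AHNAK had only 0.612 CPM in SCR1, and its call, like that of MDM2, was lost under 12 of the 20 alternatives, with an adjusted p of 0.169 without SCR1 replicate 1 (MDM2 0.139 without SCR1 replicate 4). In limma on log2(TPM + 1) AHNAK was at 0.064 (adjusted p 0.722), and with the GC trend offset MDM2 was at 0.062 (adjusted p 0.301). The calls for PPFIBP1 and PPP5C were lost without SCR1 replicate 4 (adjusted p 0.0525 and 0.0743), and that for PPP5C also without SCR1 replicate 1 (adjusted p 0.106), in the 3 limma settings and with the transcript length offset (-0.11 to -0.12, adjusted p 0.269 to 0.466). Those for ANXA2 and CACYBP were lost in limma on log2(TPM + 1) without a filter (adjusted p 0.0908 and 0.139). MYH9, the nonmuscle myosin heavy chain that S100A4 binds, was at 632 to 692 CPM in SCR1 and 574 to 719 in KO and did not pass the test.

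Among 13 transcription factors linked to S100A8 and S100A9, 12 were tested, 4 fell and none passed the test in the other direction, with a median of -0.18. Over all genes tested, 10.6% were called lower and 10.1% higher. JUN fell by 0.89 (SE 0.16, edgeR adjusted p 0.00115), from 5.39 to 8.67 CPM in SCR1 to 3.18 to 4.22 CPM in KO. Its dimer partner FOS fell by 0.75 (SE 0.25, edgeR adjusted p 0.0397), a call that was lost under 11 of the 20 alternatives, with an adjusted p of up to 0.178 without SCR1 replicate 3. These losses included each left-out library except sgRNA_96 replicates 3 and 4. RUNX1 fell by 0.37 (SE 0.05, edgeR adjusted p 1.96e-04) and MYB fell by 0.16 (SE 0.04, edgeR adjusted p 0.0187), the latter not past the threshold without SCR1 replicate 1 (adjusted p 0.0993) or SCR1 replicate 3 (adjusted p 0.0951), nor in the 3 limma settings (adjusted p 0.0608 to 0.128). JUN was at -0.59 in limma on log2(TPM + 1) without a filter (adjusted p 0.0651). The myeloid C/EBP factors did not pass the test: CEBPA was at -0.32 (adjusted p 0.0741), CEBPB at -0.19 (adjusted p 0.335) and CEBPE at 0.82 (adjusted p 0.0974), and CEBPD was at 0 counts. SPI1, encoding PU.1, was at 45.0 CPM in SCR1 and 43.3 in KO (-0.06, edgeR adjusted p 0.617). STAT3 was at 0.15 (edgeR adjusted p 0.0562), with 5 of 6 KO values above every control, and did not pass. HIF1A (-0.24), RELA (-0.05) and NFKB1 (-0.0034) did not pass either.

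Other EF-hand calcium binders served for comparison. Of 31 genes 29 were tested, with a median of -0.06, and 5 were called (17.2%), beside 20.7% of all genes tested. STIM2, the endoplasmic reticulum calcium sensor, rose by a log2 fold change of 0.41 (SE 0.04, edgeR adjusted p 2.25e-06) and RCN2, a reticulocalbin, by 0.26 (adjusted p 0.00616), a call lost in the 3 limma settings (adjusted p 0.0674 to 0.152). GCA, grancalcin, fell by 0.57 (SE 0.08, edgeR adjusted p 1.40e-04), TESC, tescalcin, fell by 0.47 (adjusted p 0.0185, and 0.112 without SCR1 replicate 4 or 0.0545 without SCR1 replicate 3) and LCP1, L-plastin, fell by 0.21 (adjusted p 0.00123). The TESC call was also lost in the 3 limma settings (adjusted p 0.0680 to 0.165) and with the transcript length offset (adjusted p 0.0757).

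**Figure D5:**
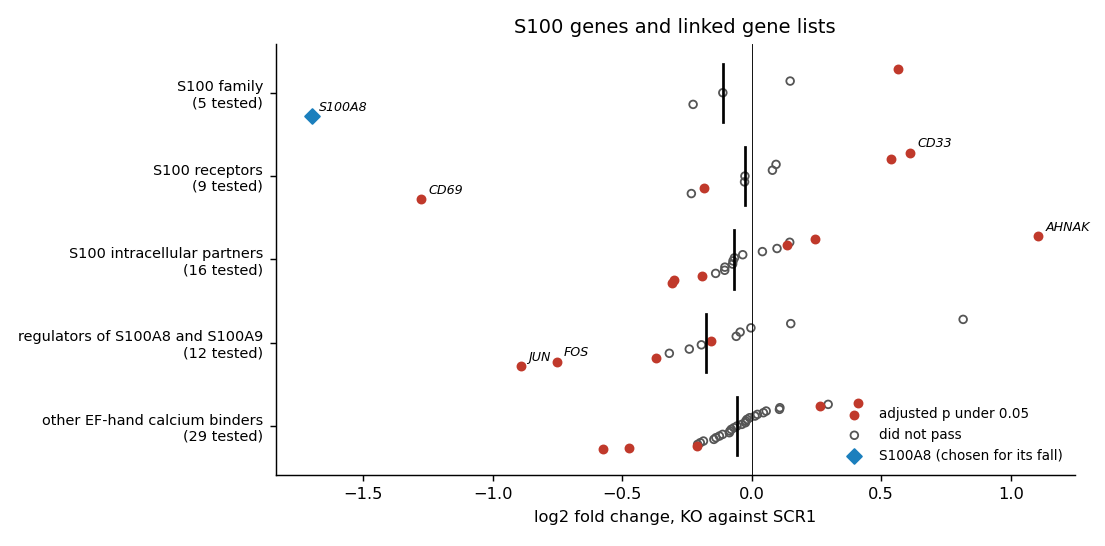
Log2 fold change of KO against SCR1 for each tested gene of the S100 family and of 4 linked lists, with the list median as a vertical bar. Filled points passed an adjusted p of 0.05 in edgeR and open points did not, and S100A8, chosen for its fall, is drawn as a diamond at -1.70.

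Markers of other cells were read beside S100A8, which is a myeloid gene in blood. Of 21 myeloid markers 10 were at 0 counts in all 9 libraries, the granule genes ELANE, PRTN3, CTSG, LCN2 and CAMP and the monocyte and granulocyte genes FCN1, VCAN, MNDA, TYROBP and FCGR3B. The summed level of the list was 40.8 to 46.1 CPM in SCR1 and 44.9 to 53.7 in KO. Of the 4 that were tested, MPO, the myeloperoxidase gene, rose (log2 fold change 1.08, SE 0.19, edgeR adjusted p 8.94e-04), as did the integrin gene ITGAM (0.74, SE 0.11, edgeR adjusted p 1.62e-04), whereas CSF1R and CST3 did not pass the test. The ITGAM call was lost on the log2 TPM scales (0.48 to 0.59, adjusted p 0.114 to 0.296 in limma) and with the transcript length offset (adjusted p 0.0715), and that of MPO with limma on log2(TPM + 1) without a filter (0.67, adjusted p 0.140). CSF1R was at -0.21 (edgeR adjusted p 0.124), with 5 of 6 KO values below every control. FCER1G, below the filter, had 0.142 to 0.285 CPM in SCR1 and at most 0.0594 CPM in KO, so that all 6 KO values were below the controls. The other markers below the filter with counts had higher means in KO. These were LYZ (0.251 CPM in SCR1, 0.323 in KO), CD14 (0.209, 0.292) and CSF3R (0.0570, 0.117). AZU1 (0.0271, 0.0600), CLEC7A (0, 0.0664) and LTF (0, 0.0181) went the same way. All were near the floor, as 3 counts in a library are 0.102 to 0.199 CPM. The part of myeloid cells in the S100A8 values was not tested. All 12 B lineage markers were tested, and RAG1 (0.87), MME (0.50) and DNTT (0.26) rose, each with all 6 KO values above the controls (edgeR adjusted p 1.09e-07, 2.45e-06 and 3.28e-04), whereas PAX5 was at -0.02 and did not pass. The list summed to 6027 to 6206 CPM in SCR1 and 6590 to 6951 in KO. These calls among myeloid and B lineage markers stand beside 20.7% of all genes tested called in either direction and 10.1% called higher. A KO range wholly above the controls was found for 10.1% of all genes tested, and a range wholly below for 10.3%. Whether either marker list exceeded these shares was not tested. T cell genes CD3D, CD3E, CD3G and CD5 were at 0 counts, TRAC fell by 0.24 (edgeR adjusted p 0.00994, and 0.0527 in limma on log2(TPM + 1) without a filter or 0.0505 with the transcript length offset), all 5 erythroid markers were at 0, and of 6 stromal markers 4 were at 0 and PDGFRB, the only one tested, did not pass the test.

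MEF2C, the gene that the targeted enhancer contacts, was at 560, 559 and 536 CPM in SCR1 replicates 1, 3 and 4. The sgRNA_96 libraries had 495, 498 and 510 CPM, and the sgRNA_97 libraries 553, 505 and 495. Of the 6 KO values, 5 were below every control and that of sgRNA_97 replicate 1 was among the controls. The log2 fold change was -0.12 (SE 0.04, edgeR adjusted p 0.0620). It passed the threshold under 4 of the 20 alternatives, with DESeq2 (adjusted p 0.0270), the length trend offset (adjusted p 0.0237), the GC trend offset (adjusted p 0.00495) and without sgRNA_97 replicate 1 (adjusted p 0.0141).

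The genes with the pattern most like S100A8 over the 9 libraries were then sought, by the root mean square difference of log2 CPM after centring each gene on its own mean. The 5 nearest of 14436 genes were HES6, DRAXIN, MYT1L, EGR1 and TUBB2A, with differences of 0.397, 0.405, 0.416, 0.428 and 0.433 on the log2 scale, and the median over all genes was 0.851. HES6, a HES family transcriptional regulator, was at 6.51 ± 0.985 CPM in SCR1 (SD, n = 3) and 2.72 ± 0.491 in KO (SD, n = 6). EGR1, an immediate early transcription factor, was at 7.69 ± 0.273 and 2.92 ± 0.472 CPM, and MYT1L, a neuronal zinc finger factor, at 2.36 ± 0.527 and 0.881 ± 0.140. All 5 were lower in KO, which the search itself fixes. Of the 4 other S100 genes that passed the filter, S100A4 was at 0.780 and S100A7A at 0.839, a little nearer than the median gene. S100A13 was at 0.886 and S100A1 at 1.08. Since S100A8 was chosen for its fall in these same libraries, nothing is read from its distance to them.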

How the data were processed

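The authors sequenced TruSeq mRNA libraries and ran the nf-core workflow, in which TrimGalore removed adapters, STAR mapped the reads on hg38 and Salmon 1.10.1 estimated transcript abundance. They deposited estimated counts per transcript without normalization and TPM values scaled by Salmon to 1000000 per library. The annotation release and the use of strand were not given in the sources used here. All 252835 transcripts matched GENCODE release 44, and no column lacked a sample.

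Transcript counts were summed per gene within each of the 9 libraries and rounded. Genes were kept by filterByExpr (minimum count 10), scaled by TMM and compared by glmQLFit and glmQLFTest (quasi-likelihood) in edgeR 4.0.16, run in R 4.3.3. P-values were adjusted by Benjamini-Hochberg over all 14436 genes, with a threshold of 0.05. KO against SCR1 used 6 against 3 libraries, and the guide contrasts came from a single fit with 3 groups. DESeq2 1.42.0, limma 3.58.1 on log2 TPM, other scalings, filters, offsets and leaving out each library were alternatives. The code was tested on simulated data. Whether replicates were separate cultures is not stated, so p-values measure the spread between libraries. No library was a duplicate, since the chi-square between replicates was 4.32 to 8.62 times its degrees of freedom.

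The members and lists were chosen with earlier results of these data known. Named genes were the 8 members, the other family genes, up to 4 called genes per list and direction, list genes at 0, called neighbours, MEF2C and the 5 genes nearest to S100A8. Receptor, partner, regulator and marker genes beyond that rule (such as TLR4, MYH9, CEBPA and FCER1G) and the promoter motifs were chosen after values were seen.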

Additional observations from a re-analysis of the deposited data

How the results depend on the processing

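S100A9 and S100A16, with 15 and 2 counts over the 9 libraries, were too thinly counted for a difference to be detected. Over 20 results of the 5 tested family genes under 20 alternatives, 391 of 400 log2 fold changes kept their direction. The kept ones include S100A8 in KO and with each guide against SCR1, 20 of 20 each. Nothing is read from those, since the gene was chosen for this fall and all alternatives use the same 9 libraries. The 9 that reversed were small: S100A7A without SCR1 replicate 1 (0.042 in KO, 0.16 with sgRNA_96) and without sgRNA_96 replicate 3 (0.09 with sgRNA_96), S100A8 between the guides without sgRNA_97 replicate 1 (-0.13), and S100A13 between the guides with limma on log2(TPM + 1) (0.0616, with or without the filter), with limma on log2(TPM + 0.1) (0.0623), with the average transcript length offset (0.0615) and without sgRNA_96 replicate 3 (0.0533). The cause was not tested. Over the left-out libraries S100A7A ran from -0.39 to 0.042 in KO and from -0.34 to 0.16 with sgRNA_96, and between the guides S100A8 ran from -0.13 to 0.51 and S100A13 from -0.12 to 0.0533.

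Of genes called in KO against SCR1, 2984 became 1240 with limma on log2(TPM + 1), 1246 on log2(TPM + 0.1), 648 without a filter on log2(TPM + 1) and 1524 with the average transcript length offset. For sgRNA_96 the main 1615 became 448, 451, 201 and 659 in the same order, and 2485 with the GC trend offset. For sgRNA_97 the main 2181 became 706, 706, 311 and 924. Between the guides the main 3 became 8 with DESeq2, 106 without the filter on low counts, 0 in limma on either filtered scale (626 and 600 genes at an unadjusted p under 0.05), 1 without a filter in limma and 1 with the length offset. Leaving out a library gave 1523 to 3543 calls in KO (fewest without SCR1 replicate 1, and 1846 without SCR1 replicate 4), 755 to 2010 for sgRNA_96, 1014 to 2481 for sgRNA_97 and 1 to 4 between the guides. The S100 family count of 2, S100A8 included, was 1 to 2 over the left-out libraries, being 1 without SCR1 replicate 1 or 4, and 3 in limma on log2(TPM + 1) without a filter, where S100A14 was added (11 counts in all).

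Replicate numbers did not pair the libraries, since deviations of same-numbered libraries correlated by -0.07 to 0.06 and 1 of 9 libraries correlated best with its own number. With the replicate block 2936 genes were called in KO, 1576 with sgRNA_96, 2082 with sgRNA_97 and 1 between the guides, with 2 S100 family genes.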
